A study of Mus musculus with 4 samples.

Results

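Pericytes of aged mouse lung were taken from 4 single-cell RNA libraries as barcodes selected on measured values: at least 3 of Cox4i2, Higd1b, Notch3, Trpc6 and Gucy1a1 with a UMI (a unique molecular identifier, 1 counted RNA molecule), Cox4i2 or Higd1b being one of them, no UMI of Ptprc or Cdh5, and fewer than 3 of Hhip, Lgr6, Aspn, Cdh4 and Fgf18. The rule found 683 members (197 and 170 in BPTES libraries 1 and 2, 132 and 184 in DMSO libraries 1 and 2) among 68675 barcodes kept for having 500 or more genes, 1000 or more UMIs and no more than 10% of UMIs from mitochondrial genes. All lungs came from male C57BL/6 mice, 19 months old at the start of treatment, that received for 1 month either BPTES, an inhibitor of glutamine breakdown, or DMSO, its solvent. Each group had 2 libraries, and each library mixed 20000 sorted CD45- with 9000 CD45+ cells of 1 Liberase-digested tissue. The dose is not given in the sources used here, and the labels do not say whether the libraries of a group came from separate mice, so p-values measure only the spread between these libraries.

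Pericytes are mural cells embedded in the basement membrane of capillaries. They are recruited by platelet-derived growth factor acting on the receptor Pdgfrb, are kept in contact with endothelium partly through Notch3, and respond to nitric oxide through soluble guanylate cyclase, whose alpha subunit is encoded by Gucy1a1. In lung they are told from smooth muscle by Cox4i2 and Higd1b, which encode mitochondrial proteins, and by low levels of contractile genes.

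The libraries held 260346570 to 342107092 UMIs, and members had median depths of 15746 and 16716 UMIs in BPTES and 13254 and 13884 in DMSO. Both BPTES values lay above both DMSO values. Between 65 and 104 barcodes were shared by any pair of libraries, 8 members were also kept barcodes in another library, and no barcode was a member in more than 1 library. No doublet caller was run. Surfactant and other AT2 markers summed to 6142 CPM (counts scaled to a fixed library total) in members of BPTES library 1 and to 84.8 to 229 CPM in the other 3, and all 7 markers had a UMI. The 8 macrophage and monocyte markers, of which Marco was at 0, summed to 1375 CPM there and to 35.0 to 73.3 CPM in the others. Mixed barcodes were members with at least 3 markers of alveolar fibroblasts, AT2, AT1, endothelial, macrophage and monocyte, B, or T and NK cells. Smooth muscle, adventitial fibroblast and airway markers were not counted. Mixed barcodes were 312 of the 683 (45.7%), 101 and 88 in BPTES libraries 1 and 2 and 34 and 89 in DMSO libraries 1 and 2. DMSO library 1 had the lowest share, at 25.8%, and the other 3 had 48.4% to 51.8%. Of all members, 253 carried alveolar fibroblast, 69 AT2 and 46 endothelial markers in this number. The fibroblast list holds Npnt and Tcf21, at 416 ± 38.3 and 171 ± 24.8 CPM in the members that met neither count defined below. Whether mixed barcodes held RNA of a second cell was not tested. Without mixed barcodes, the AT2 sum in BPTES library 1 was 355 CPM. The endothelial list summed to 94.7 to 98.9 CPM in BPTES and 88.6 to 106 CPM in DMSO.

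The 5 genes that chose the members are given as a description, with no test. Gucy1a1 (chr3:82092427-82145946, GRCm38.p6) measured 4222 and 4432 CPM in BPTES libraries 1 and 2 and 4782 and 4649.9 CPM in DMSO libraries 1 and 2. Trpc6 (chr9:8543867-8680752), a cation channel, measured 2152 and 2153 CPM in BPTES libraries 1 and 2 and 2109.5 and 2374 CPM in DMSO libraries 1 and 2. Cox4i2 (chr2:152753916-152765039), a subunit of cytochrome c oxidase, measured 1289 and 1346 CPM in BPTES libraries 1 and 2 and 1288 and 1361 CPM in DMSO libraries 1 and 2. The 4 libraries lay close together for each of these genes. Notch3 (chr17:32120820-32166896) measured 1167 and 1137 CPM in BPTES libraries 1 and 2 and 1149 and 1064 CPM in DMSO libraries 1 and 2. Higd1b (chr11:102835761-102844141) measured 504 and 635 CPM in BPTES libraries 1 and 2 and 595 and 579.7 CPM in DMSO libraries 1 and 2. In capillary endothelium, defined by a UMI of Cdh5 and of at least 3 of 6 further endothelial genes, the same 5 genes averaged 1.95 to 21.1 CPM.

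Some of the genes outside the rule that are used to recognise pericytes were high as well. Pdgfrb was found in 94.3% of members, Postn, encoding the matrix protein periostin, in 87.0%, and Cspg4, encoding the proteoglycan NG2, in 77.3%. After thinning each barcode to 5000 UMIs, with 600 members and 20885 capillary barcodes deep enough, these shares were 88.7%, 85.3% and 65.7% of members, against 1.01%, 1.20% and 0.278% of capillary barcodes. Mcam, an adhesion molecule of mural and endothelial cells, did not separate the classes in this way: 78.5% of thinned members and 59.2% of capillary barcodes had a UMI. Rgs5, Kcnj8 and Abcc9, mural genes in many organs, were low here, at 118 ± 56.3, 36.8 ± 19.8 and 128 ± 63.4 CPM (SD, n = 4 libraries). Steap4, Ebf2, Lamc3 and Anpep, from the same list of identity genes, were low too, at 47.6 ± 47.9, 26.3 ± 24.7, 17.2 ± 1.88 and 7.85 ± 4.55 CPM. Rgs5 was found in 7.0% of thinned members and 5.96% of capillary barcodes.

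The members were not uniform. By counts of further marker genes, 176 members met a smooth muscle count (at least 4 of Acta2, Myh11, Actg2, Cnn1, Lmod1 and Tagln, Myh11 being one), 181 met only an alveolar fibroblast count (at least 3 of Npnt, Tcf21, Pdgfra, Ces1d and Inmt, Tcf21 or Pdgfra being one), and 326 met neither. Members that met neither had 1881 ± 139 CPM of Cox4i2, 3928 ± 220.2 CPM of Postn and 108 ± 65.7 CPM of Acta2, which encodes smooth muscle actin (mean ± SD, n = 4 libraries). Members with the fibroblast count had 1016 ± 116 CPM of Cox4i2 and 1939 ± 336 CPM of Inmt, a fibroblast gene, compared with 16.1 ± 2.49 CPM of Inmt in those that met neither. Members with the smooth muscle count had 869 ± 307 CPM of Cox4i2 and 3601 ± 522 CPM of Acta2. These parts were defined by the genes listed, so their levels of those genes are a description.

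**Figure D1:**
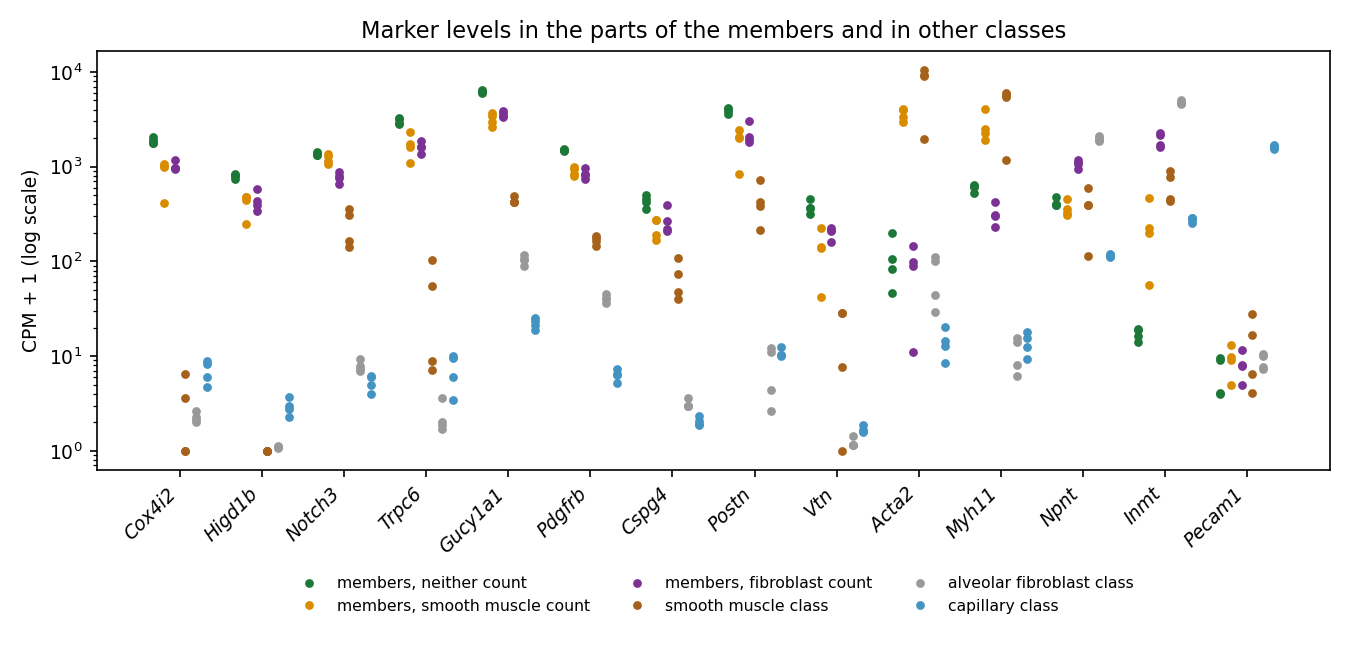
CPM + 1 on a log axis of 14 genes; each point is 1 of the 4 libraries, and colours mark 3 parts of the members and 3 other classes. Cox4i2 lies between 411 and 2069 CPM in the parts of the members and at or below 7.84 CPM in the other classes. The member rule used Cox4i2, and members were left out of the smooth muscle and fibroblast classes. This gap follows from the selection and is a description.

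The pericyte name holds less well at the edge of the rule. The 94 members with exactly 3 of the 5 markers had 87.3 ± 25.2 CPM of Cox4i2 and 172 ± 71.6 CPM of Postn, with 3345 ± 1578 CPM of Acta2 and 2464 ± 314 CPM of the fibroblast gene Inmt. The 198 barcodes just outside, with exactly 2 markers, had 42.6 ± 5.01 CPM of Cox4i2 and 167 ± 250.2 CPM of Acta2, with 4723 ± 457 CPM of Inmt. A group within the members carried the contractile genes most strongly: 44 members had a UMI of Cnn1, encoding calponin, 39 of them had all 6 smooth muscle genes, and 34 of them had exactly 3 pericyte markers. This group was chosen after its values were seen. It held 55.0% and 66.7% of the Acta2 UMIs of members in BPTES and 50.1% and 60.3% in DMSO.

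Members made up 1.86% (95% Wilson interval 1.62 to 2.13%) and 1.64% (95% Wilson interval 1.41 to 1.90%) of the barcodes without Ptprc in BPTES libraries 1 and 2. In DMSO they made up 1.35% (95% Wilson interval 1.14 to 1.60%) and 1.45% (95% Wilson interval 1.26 to 1.68%). The groups did not overlap and the ratio of the means was 1.24, with a two-sided exact permutation p = 0.333, the smallest that 2 against 2 libraries allow. The intervals cover counting error only. Without mixed barcodes, an alternative chosen after seeing the data, the share was 0.904% and 0.789% in BPTES libraries 1 and 2 and 1.00% and 0.751% in DMSO libraries 1 and 2, so the groups overlapped (ratio 0.965, exact permutation p = 1.00). The share without the members that met the smooth muscle count was 1.25% and 1.13% in BPTES libraries 1 and 2 and 1.13% and 1.16% in DMSO libraries 1 and 2, so the groups overlapped (ratio 1.04, exact permutation p = 1.00). Members that met neither count were 0.782% and 0.664% in BPTES libraries 1 and 2 and 0.881% and 0.695% in DMSO libraries 1 and 2 of these barcodes, a ratio of 0.918. Members that met the smooth muscle count were 32.5% and 31.2% in BPTES libraries 1 and 2 and 16.7% and 20.1% in DMSO libraries 1 and 2 of all members. After thinning to 5000 UMIs these were 16.6% and 14.4% in BPTES libraries 1 and 2 and 10.6% and 11.5% in DMSO libraries 1 and 2. The BPTES libraries were higher in both measures, and both permutation tests gave p = 0.333. Members with this count were also deeper, at medians of 17718 and 18445 UMIs in BPTES and 13669 and 16849 in DMSO, and the part of depth in the unthinned share was not tested.

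**Figure D2:**
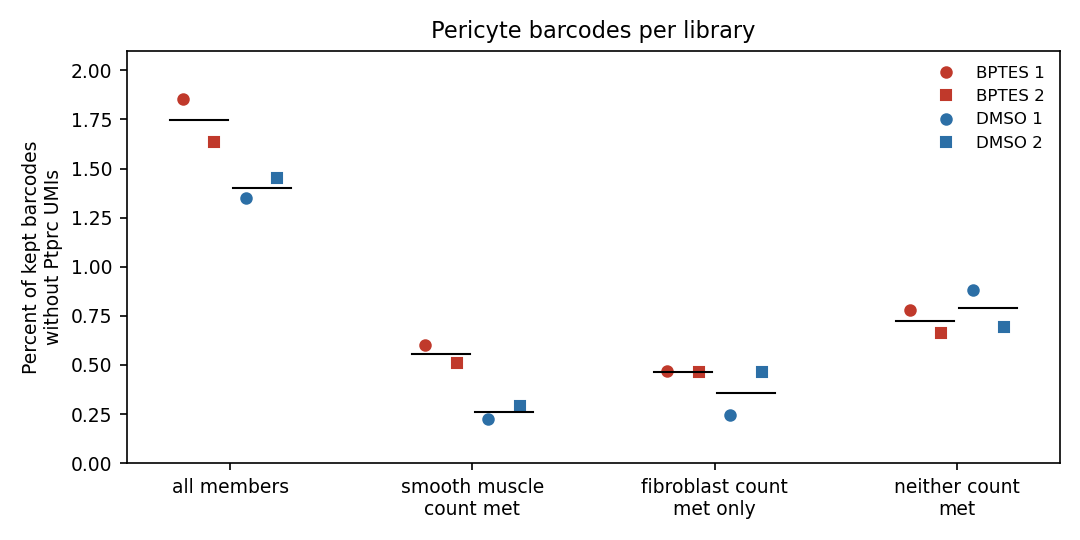
Percent of kept barcodes without Ptprc UMIs that are members, in all and in 3 parts; points are libraries and horizontal lines are group means. The part with the smooth muscle count was 0.603% and 0.510% in BPTES and 0.225% and 0.292% in DMSO, while the part that met neither count overlapped between groups.

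Expression in members was then compared between BPTES and DMSO on UMIs summed per library. Of 11543 genes tested, none was called higher (0.0%) or lower (0.0%) at an adjusted p below 0.05 by edgeR's quasi-likelihood test. At an unadjusted p below 0.05 there were 677 genes (301 higher, 376 lower), and DESeq2 called 10: Acta2, Tagln, Hspa1b and Areg higher, and Rgs16, Ptgs2, Ednrb, Steap4, Gm4951 and H2-M9 lower. Of these, Areg, Ptgs2, Ednrb, Rgs16 and H2-M9 had more of their UMIs in 2 barcodes than in all the other members, in every library where they were found. The 2 groups did not overlap, with BPTES higher, in 18.7% of all genes tested, and with BPTES lower in 18.2%. Values below are of genes that did not pass in edgeR, and the counts of list genes without overlap stand beside these shares over all genes.

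Over all members, genes of the contractile list lay mostly higher in BPTES. The groups did not overlap, with BPTES higher, for 12 of 18 genes tested, and 1 was lower. The median log2 difference of the list was 0.34, beside -0.00 over all genes. On counts per total UMIs the 12 became 4 without mixed barcodes (1920 of 11551 over all genes) and 5 without the members that met the smooth muscle count (1870 over all genes). Acta2 measured 1373 and 1518 CPM in BPTES libraries 1 and 2 and 771 and 797 CPM in DMSO libraries 1 and 2. Both BPTES libraries were higher (log2 difference 0.88 ± 0.10 (SE), unadjusted p = 7.92e-05, adjusted p = 0.316 by edgeR). Tagln, encoding the actin-binding protein transgelin, measured 1013 and 1184 CPM in BPTES libraries 1 and 2 and 745 and 664 CPM in DMSO libraries 1 and 2 (log2 difference 0.64 ± 0.12 (SE), unadjusted p = 0.00141, adjusted p = 0.677 by edgeR), and its log2 difference was 0.33 without mixed barcodes. Myh11, the smooth muscle myosin heavy chain, overlapped between groups, at 1009.7 and 1252 CPM in BPTES libraries 1 and 2 and 1114 and 887 CPM in DMSO libraries 1 and 2. DESeq2 called Acta2 (adjusted p = 1.29e-06) and Tagln (adjusted p = 0.0331). Over the alternatives the adjusted p of Acta2 ranged from 4.91e-13, with no filter on low counts, to 0.995, with at least 4 of 5 markers. Its log2 difference was 1.08 without members that met the smooth muscle count and 0.48 without mixed barcodes. Within the members that met the smooth muscle count, Acta2 measured 3346 and 4099 CPM in BPTES libraries 1 and 2 and 3968 and 2992 CPM in DMSO libraries 1 and 2, and the groups overlapped. Outside the 44 members with Cnn1, it was 665 and 568 CPM in BPTES and 408 and 334 CPM in DMSO, which did not overlap. Acta2 was also higher with BPTES in the alveolar fibroblast class, at 101 and 111 CPM in BPTES libraries 1 and 2 and 27.9 and 42.7 CPM in DMSO libraries 1 and 2, while in capillary endothelium the groups overlapped, at 7.47 and 19.4 CPM in BPTES libraries 1 and 2 and 13.5 and 11.8 CPM in DMSO libraries 1 and 2. The part of the larger smooth muscle share in these differences was not tested, and more such members and more RNA per member cannot be told apart in summed counts.

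**Figure D3:**
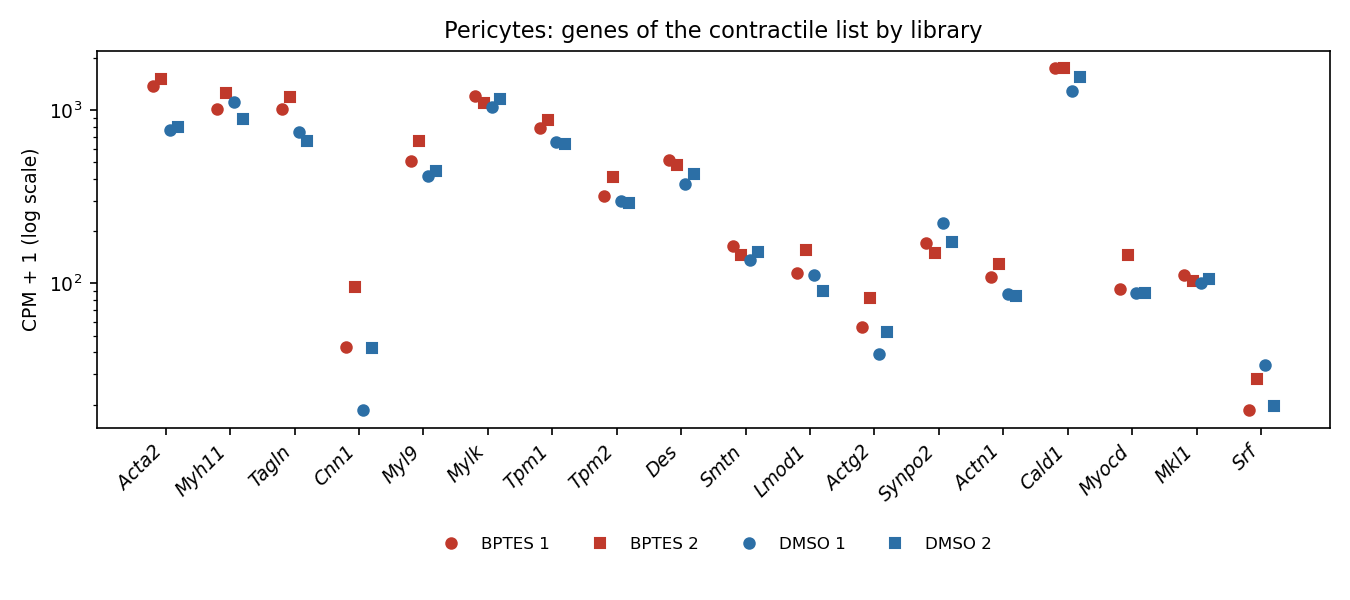
CPM + 1 on a log axis of the 18 genes of the contractile list in members, 1 point per library. Acta2 and Tagln are higher in both BPTES libraries, and Myh11 and Mylk overlap.

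Of immediate early and heat shock genes, 3 heat shock genes chosen after their values were seen are given first. Hspa1b, encoding an inducible chaperone, measured 83.9 and 174 CPM in BPTES libraries 1 and 2 and 32.3 and 48.7 CPM in DMSO libraries 1 and 2 (log2 difference 1.64 ± 0.37 (SE), unadjusted p = 0.00371, adjusted p = 0.677 by edgeR), and without the members that met the smooth muscle count its log2 difference was 0.71. Hspa1a measured 163 and 288 CPM in BPTES libraries 1 and 2 and 95.7 and 115 CPM in DMSO libraries 1 and 2. BPTES library 2 was the highest for both. Hsph1, a co-chaperone, measured 31.3 and 79.2 CPM in BPTES libraries 1 and 2 and 12 and 20.5 CPM in DMSO libraries 1 and 2. Fos, an immediate early gene, measured 2200.2 and 1758 CPM in BPTES libraries 1 and 2 and 2202 and 2264 CPM in DMSO libraries 1 and 2. Jun measured 1698 and 1220.2 CPM in BPTES libraries 1 and 2 and 1433 and 1777 CPM in DMSO libraries 1 and 2, and its groups overlapped. In the list of both kinds of gene, 6 of 24 were higher and 4 lower without overlap, with a median log2 difference of -0.08 and a range of -0.22 to 1.71, and 5 were higher and 0 lower at an unadjusted p below 0.05. The 6 higher without overlap became 2 without mixed barcodes.

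Interferon-regulated genes more often had lower values in BPTES, with 9 of 22 not overlapping in that direction and 1 in the other. Over all genes these shares were 18.2% and 18.7%. The median log2 difference of the list was -0.39, and none of its genes was called. On counts per total UMIs, 10 were lower over all members. This became 7 without mixed barcodes and 13 without the members that met the smooth muscle count. Isg15, a ubiquitin-like interferon-induced protein, measured 28.8 and 19.4 CPM in BPTES libraries 1 and 2 and 61.8 and 35.9 CPM in DMSO libraries 1 and 2. Cxcl10, a chemokine, measured 7.43 and 25.9 CPM in BPTES libraries 1 and 2 and 78.2 and 46.9 CPM in DMSO libraries 1 and 2, and 93.7% of its UMIs in DMSO library 1 came from 2 barcodes. The 4 genes of the list with the highest level, B2m, H2-D1, H2-K1 and Iigp1, overlapped between groups. B2m, the shared chain of class I molecules, measured 649 and 568 CPM in BPTES libraries 1 and 2 and 686 and 598 CPM in DMSO libraries 1 and 2.

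Genes of glutamine use, the pathway that BPTES enters, gave 2 of 21 higher and 6 lower without overlap, beside 18.7% and 18.2% over all genes. On counts per total UMIs, 2 were higher and 8 lower over all members. These became 4 and 3 without mixed barcodes, and 4 and 9 without the members that met the smooth muscle count. Glud1, glutamate dehydrogenase, measured 166 and 163 CPM in BPTES libraries 1 and 2 and 176 and 171 CPM in DMSO libraries 1 and 2, and its log2 difference turned from -0.08 to 0.11 without mixed barcodes. Atf4, a regulator of the response to amino acid shortage, measured 160.0 and 208 CPM in BPTES libraries 1 and 2 and 169.6 and 185 CPM in DMSO libraries 1 and 2. Of its list, 3 of 15 genes were lower and 0 higher without overlap.

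The identity genes with high levels differed little in value. Pdgfrb overlapped between groups, at 1075 and 1121 CPM in BPTES libraries 1 and 2 and 1142 and 1113 CPM in DMSO libraries 1 and 2. Pde5a, the cGMP phosphodiesterase, measured 4143 and 4199 CPM in BPTES libraries 1 and 2 and 4339.9 and 4379 CPM in DMSO libraries 1 and 2. Angpt1, a ligand for the endothelial receptor Tie2, is from the list of signals between pericytes and endothelium and not from the identity list. It measured 1108 and 1106 CPM in BPTES libraries 1 and 2 and 1129 and 1142 CPM in DMSO libraries 1 and 2. Pde5a and Angpt1 did not overlap, with log2 differences of -0.06 and -0.04, which turned to 0.01 and 0.01 without the members that met the smooth muscle count. Postn overlapped, at 2549.5 and 3106 CPM in BPTES libraries 1 and 2 and 2667 and 2812 CPM in DMSO libraries 1 and 2. Vtn, encoding vitronectin, measured 217 and 225 CPM in BPTES libraries 1 and 2 and 307 and 276 CPM in DMSO libraries 1 and 2, lower in both BPTES libraries (log2 difference -0.40 ± 0.11 (SE), unadjusted p = 0.0102, adjusted p = 0.752 by edgeR). In the identity list, 9 of 20 were lower in BPTES without overlap and 1 was higher, beside 18.2% and 18.7% over all genes. Rgs5, Kcnj8, Ebf2, Steap4 and Anpep were highest in DMSO library 1. Rgs5, a regulator of G protein signalling, measured 90.4 and 78.9 CPM in BPTES libraries 1 and 2 and 201 and 101 CPM in DMSO libraries 1 and 2. Outside 16 members rich in such genes, chosen after their values were seen, Rgs5 was 39.1 and 14.1 CPM in BPTES and 3.59 and 13.1 CPM in DMSO. These members were picked by their UMIs of Steap4, Ebf2, Kcnj8, Abcc9, Rgs5 and Ednrb. What remained of these genes was shaped by that choice and is a description. In the remaining members Ebf2 (1.58 and 4.46 against 27.5 and 21.6 CPM), Kcnj8 (16.1 and 13.4 against 27.5 and 20.1 CPM) and Steap4 (7.89 and 5.83 against 8.96 and 11.9 CPM) had lower values in both BPTES libraries. The BPTES values of Rgs5 were the higher ones there, and those of Abcc9 (63.1 and 78.5 against 68.1 and 56.0 CPM) and Ednrb (11.04 and 14.1 against 1.20 and 38.4 CPM) overlapped. The Rgs5 log2 difference of -0.82 was -2.13 without the members that met the smooth muscle count and -0.20 without mixed barcodes. Steap4, a metalloreductase, measured 21.0 and 12.8 CPM in BPTES libraries 1 and 2 and 118 and 38.8 CPM in DMSO libraries 1 and 2, and 2 barcodes held 49.8% of its UMIs in DMSO library 1.

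Of the genes with the smallest unadjusted p, Rgs16, of the same family as Rgs5, measured 15.5 and 12.5 CPM in BPTES libraries 1 and 2 and 52.0 and 91.2 CPM in DMSO libraries 1 and 2 (log2 difference -2.37 ± 0.30 (SE), unadjusted p = 1.64e-04, adjusted p = 0.316 by edgeR). Ptgs2, encoding cyclooxygenase 2, measured 11.8 and 13.5 CPM in BPTES libraries 1 and 2 and 45.9 and 79.8 CPM in DMSO libraries 1 and 2. In both DMSO libraries 96.3% or more of the Ptgs2 UMIs came from 2 barcodes, and its log2 difference turned from -2.33 to 1.58 without mixed barcodes. Thbs1, encoding thrombospondin 1, measured 656 and 723 CPM in BPTES libraries 1 and 2 and 382 and 485 CPM in DMSO libraries 1 and 2, and its log2 difference of 0.67 was 0.33 without the members that met the smooth muscle count. Atp8b1, a phospholipid flippase, measured 71.8 and 67.4 CPM in BPTES libraries 1 and 2 and 33.9 and 26.4 CPM in DMSO libraries 1 and 2. Parm1 measured 120.1 and 158 CPM in BPTES libraries 1 and 2 and 61.3 and 83.9 CPM in DMSO libraries 1 and 2. The other genes higher under this rule were Tnfrsf12a, Map3k7cl, Chka, Olfml2b and Cbr2. Without the members that met the smooth muscle count, the log2 difference went from 1.29 to 0.54 for Tnfrsf12a, from 0.85 to 0.23 for Chka and from 0.59 to 0.10 for Olfml2b, and Map3k7cl was not tested there. Of the Cbr2 UMIs in BPTES, 85.3% and 76.1% came from 2 barcodes, and Cbr2 was not tested without mixed barcodes. Rin2 measured 46.7 and 45.3 CPM in BPTES libraries 1 and 2 and 109.9 and 82.8 CPM in DMSO libraries 1 and 2, with no more than 26.7% of UMIs in 2 barcodes. Cdh11, a mesenchymal cadherin, measured 111 and 111 CPM in BPTES libraries 1 and 2 and 168 and 219.7 CPM in DMSO libraries 1 and 2, and its sign turned without mixed barcodes (log2 difference 1.23). The other genes lower were Ddx60, Cd34, Bcas3os1, Eps8l1, Ly6a and Lrrc4c. Of the Ly6a UMIs in DMSO, 66.7% and 61.3% came from 2 barcodes. The log2 difference of Ly6a went from -1.12 to -0.24 without mixed barcodes. For Cd34 the shares in 2 barcodes were 53.0% and 49.3% in DMSO, and it was not tested without mixed barcodes.

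Senescence genes gave 4 of 21 higher and 4 lower without overlap. Cdkn1a, encoding the cell cycle inhibitor p21, measured 93.5 and 93.0 CPM in BPTES libraries 1 and 2 and 83.1 and 155 CPM in DMSO libraries 1 and 2, and the groups overlapped. Cdkn2a, encoding p16, was near the detection limit, at 1.18 ± 1.01 CPM (SD, n = 4 libraries), and was not tested. Bcl2, an inhibitor of apoptosis, measured 152 and 161 CPM in BPTES libraries 1 and 2 and 141 and 156 CPM in DMSO libraries 1 and 2. Of respiration and hypoxia genes, 5 of 18 were higher and 1 lower without overlap. On counts per total UMIs these were 5 and 2, and 2 and 3 without mixed barcodes. Epas1, encoding the hypoxia factor HIF-2alpha, overlapped at 871 and 836 CPM in BPTES libraries 1 and 2 and 794 and 862 CPM in DMSO libraries 1 and 2. Of basement membrane genes, 1 of 18 did not overlap, on the lower side over all members (5 higher and 2 lower without mixed barcodes), and Col4a1 measured 1676 and 2095 CPM in BPTES libraries 1 and 2 and 1424 and 1794 CPM in DMSO libraries 1 and 2.

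**Figure D4:**
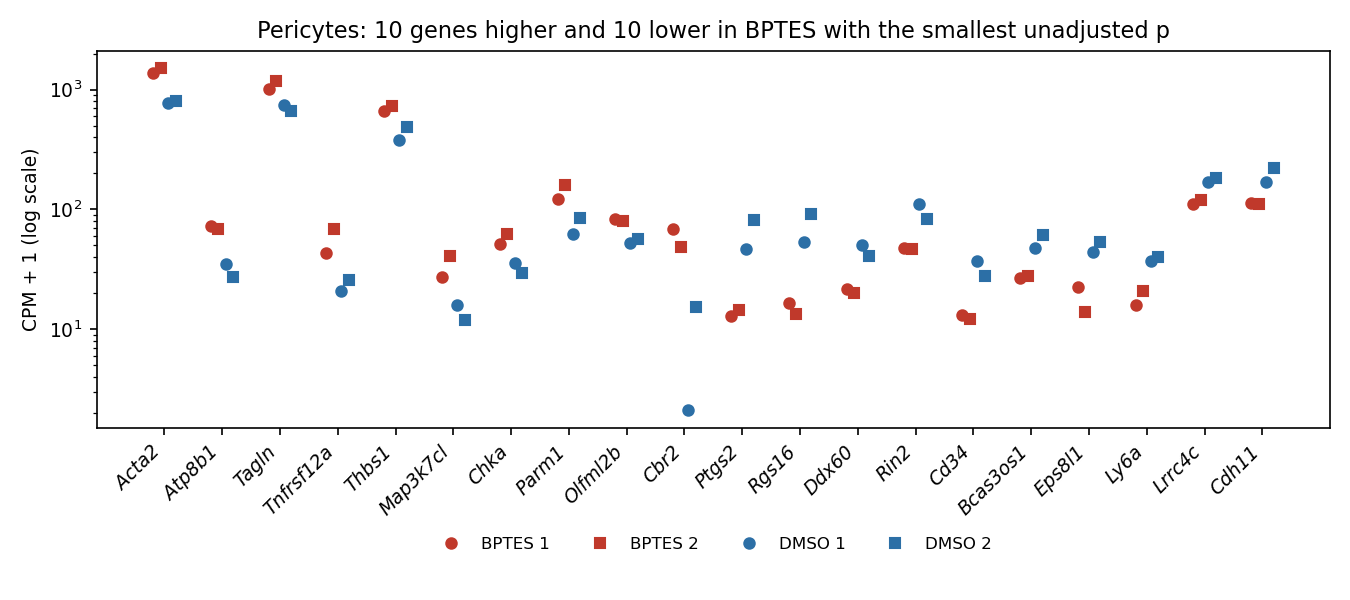
CPM + 1 on a log axis of the 10 genes higher and the 10 lower in BPTES with the smallest unadjusted p, 1 point per library. The groups do not overlap because that was required, and no gene passed adjustment.

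Whether differences in members differed from those in alveolar fibroblasts was tested by the interaction of class and treatment. None of 17413 genes passed (0.0%; 722 at an unadjusted p below 0.05), and the smallest adjusted p was 0.11. For Acta2 the log2 difference in members minus that in fibroblasts was -0.76 ± 0.19 (SE; adjusted p = 0.933 by edgeR).

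Members were next set against smooth muscle and alveolar fibroblast classes of the same libraries. Each comparison left out of its calls the genes of the member rule and of the rule of the class compared. Genes of the other class rule stayed in. The smooth muscle class held only 14 to 36 barcodes per library, and that of DMSO library 1 stood apart, with 1979 CPM of Acta2 against 9083 to 10539 in the other 3. A gene was called at an adjusted p below 0.05 and a difference of at least 2-fold by edgeR. Against smooth muscle, 818 of 10026 genes were higher in members (8.16%) and 1045 lower (10.4%). Without DMSO library 1, 1870 genes were called. Against alveolar fibroblasts, 1452 of 16265 were higher (8.93%) and 2062 lower (12.7%).

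Spp1, encoding the secreted phosphoprotein osteopontin, and Adcy8, an adenylate cyclase, were among the 12 genes with the largest difference in both comparisons. Spp1 averaged 3224 ± 1025 CPM in members and 0.909 ± 0.196 CPM in alveolar fibroblasts (log2 difference 11.75 ± 0.29 (SE), adjusted p = 7.20e-08 by edgeR). Adcy8 averaged 1914 ± 406 and 0.867 ± 0.643 CPM (log2 difference 11.22 ± 0.33 (SE)). In the smooth muscle class each of the 2 had 1 UMI in all. Spp1 was higher in value in the members that met neither count, at 5535 ± 1252 CPM, against 859 ± 539.7 CPM in those with the smooth muscle count. Gap43, known from growing axons, and Fam162b had no UMI in the smooth muscle class, so they were at least 147-fold and 124-fold higher in members, taking 3 UMIs over the class as the limit. Fam162b averaged 208 ± 45.1 CPM in members. Of the 12 genes with the largest difference against smooth muscle, those also without a UMI in that class were Gm42906, Rflna, Egfem1, Nrxn3, Wfdc8, Unc5d, AC138306.1 and Cybrd1, at least 41.9 to 91.1-fold higher. Clstn2, a synaptic calsyntenin, averaged 1093 ± 282 CPM in members and 1.31 ± 0.802 CPM in fibroblasts. Cysltr1, a leukotriene receptor, averaged 87.3 ± 23.7 and 0.105 ± 0.0263 CPM. Olfr550, Epor, AC138306.1 and Kcnj12 were also among the 12 against fibroblasts. Vtn averaged 246 ± 40.4 and 0.225 ± 0.15 CPM.

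Of genes lower in members, Wnt2, a fibroblast ligand, averaged 10.4 ± 10.4 CPM against 119 ± 17.8 CPM in alveolar fibroblasts (log2 difference -3.67 ± 0.39 (SE)). Trdn, encoding triadin of the calcium release complex, averaged 1.39 ± 1.24 CPM against 93.0 ± 62.4 CPM in smooth muscle (log2 difference -5.92 ± 0.55 (SE)). Sftpc, a surfactant gene of AT2 cells, was among the lower genes against fibroblasts, at 1183 ± 2101 and 4691 ± 1626 CPM, and lost its call without the library block (adjusted p = 0.17 by edgeR). Its level in members came mainly from BPTES library 1, whose AT2 sum is given above. AT2 markers were called lower in members for 5 of 7 and higher for 0 against fibroblasts. Barcodes with AT2 markers were not removed from the fibroblast class, and the part of AT2 RNA in that class was not tested. Mmp3, a matrix protease, averaged 24.5 ± 38.8 CPM against 566 ± 616 CPM in smooth muscle and lost its call without BPTES library 2 (adjusted p = 0.0945 by edgeR).

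Identity genes outside the rule were called higher for 12 of 20 against smooth muscle and 15 against fibroblasts, and lower for 2 and 1. Ndufa4l2, a mitochondrial protein induced by hypoxia, averaged 630.4 ± 28.9 CPM in members and 33.2 ± 11.7 CPM in smooth muscle (log2 difference 4.24 ± 0.25 (SE)). Tbx2, a transcription factor, averaged 668 ± 51.9 and 85.9 ± 36.1 CPM (log2 difference 3.02 ± 0.23 (SE)). Abcc9, the sulfonylurea receptor subunit of vascular potassium channels, and Ebf2 were lower than in smooth muscle, Abcc9 at 122 ± 61.0 and 313 ± 101 CPM. Of signals between pericytes and endothelium, Angpt1 was higher than in smooth muscle, at 1069.6 ± 20.9 and 411 ± 125 CPM (log2 difference 1.44 ± 0.20 (SE)), and Cxcl12, a chemokine, was lower, at 59.8 ± 21.9 and 549 ± 344 CPM. Immediate early and heat shock genes were called lower than in smooth muscle for 10 of 24 and higher for 0, and senescence genes lower for 9 of 19 and higher for 1, among the lower ones Il6, Ccl2, Cxcl1 and Cxcl2, which encode cytokines. Without DMSO library 1 these were 9 of 24 and 9 of 20. Markers of adventitial fibroblasts were also lower in members than in the smooth muscle class, for 4 of 5 tested (median log2 difference -2.45). All 6 markers of the list summed to 7217 CPM in the smooth muscle class of DMSO library 1 and to 1870.0 to 2695 CPM in the other 3, beside 315 to 755 CPM in members, and their part in the calls of these lists was not tested.

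Nitric oxide and cGMP genes were called higher in members for 5 of 10 genes against smooth muscle and 8 of 14 against fibroblasts. Those called lower were 2 and 4. Over all genes the shares were 8.16% and 8.93% higher and 10.4% and 12.7% lower. The rule used Gucy1a1 itself, so this list is not independent of the selection. It also holds the adenosine and prostanoid receptor genes Adora2a, Ptger3 and Ptgir. Against fibroblasts Ptgir was called higher and Adora2a and Ptger3 lower. Gucy1b1, the beta subunit of guanylate cyclase, averaged 2312 ± 98.8 CPM in members and 274 ± 77.8 CPM in smooth muscle (log2 difference 3.12 ± 0.21 (SE)). Mrvi1, a substrate of the cGMP-dependent kinase, was lower than in smooth muscle, at 34.6 ± 10.4 and 257 ± 71.6 CPM (log2 difference -2.90 ± 0.27 (SE)). Against fibroblasts Mrvi1 was called higher, with a log2 difference of 2.76. Without the members that met the smooth muscle count this was 0.40 and the call was lost (adjusted p = 0.690 by edgeR).

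Of contractile genes, 7 of 12 outside the smooth muscle count were lower in members than in smooth muscle. Against fibroblasts, 7 of the same 12 and all 6 genes of that count were higher over all members. Without the members that met the smooth muscle count, 5 of 12 were higher (Myl9, Tpm2, Des, Smtn and Synpo2) and 2 lower (Actn1 and Srf). Of the genes of the count, by which those members had been removed, 2 of 5 tested were then higher (Myh11 and Lmod1) and 1 lower (Actg2). Members that met neither count had 173 ± 66.1 CPM of Tagln, beside 166 ± 53.1 CPM in fibroblasts, and their Acta2 level of 108 CPM stood beside 70.7 ± 41.5 CPM. Myocd, a coactivator of smooth muscle genes, averaged 98.3 ± 27.4 CPM in members, 566 ± 306 CPM in smooth muscle (log2 difference -2.41 ± 0.23 (SE)) and 1.89 ± 1.04 CPM in fibroblasts (log2 difference 5.80 ± 0.28 (SE)). Without the members that met the smooth muscle count its log2 difference against fibroblasts was -1.45, so the sign turned and the call was lost (adjusted p = 0.104 by edgeR). Receptor and channel genes were called higher than in smooth muscle for 5 of 16 and lower for 3, and without DMSO library 1 for 5 and 5. Over all genes the shares were 8.16% higher and 10.4% lower. Among receptors, Agtr1a, for angiotensin II, averaged 199 ± 42.0 CPM in members and 4.62 ± 6.05 CPM in smooth muscle, and Ednra, for endothelin, 835 ± 51.3 and 252 ± 18.8 CPM. Basement membrane genes were called higher than in fibroblasts for 4 of 18 and lower for 3, beside 8.93% and 12.7% over all genes. Of these genes, Col4a1 averaged 1683 ± 272 CPM in members and 455 ± 76.5 CPM in fibroblasts (log2 difference 1.89 ± 0.07 (SE)). Of fibrosis matrix genes, 8 of 20 were lower than in fibroblasts and 2 higher, one of them Postn.

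**Figure D5:**
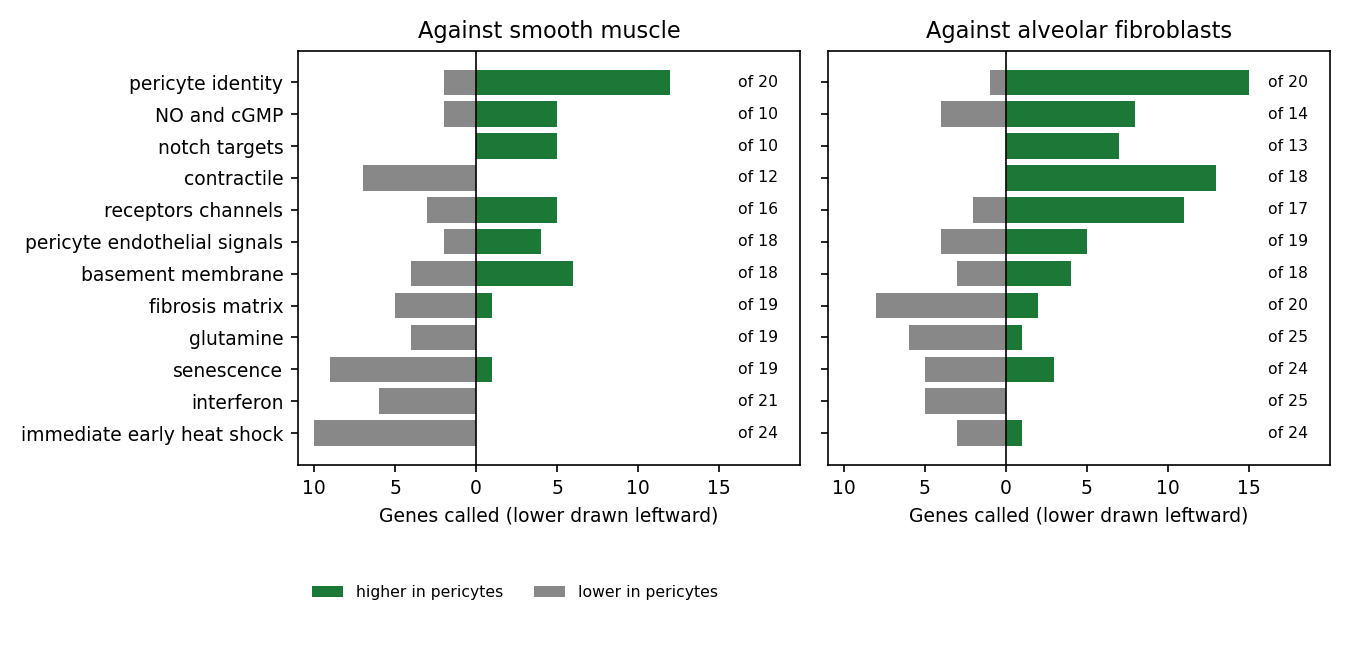
Genes of 12 lists called higher (right) or lower (left) in members, with the number tested at the right edge. All members enter. Of contractile genes 7 of 12 are called lower against smooth muscle and 13 of 18 higher against alveolar fibroblasts. Without the members that met the smooth muscle count 8 of 12 were lower against smooth muscle, and 5 of 12 genes outside that count and 2 of 5 of its genes were higher against fibroblasts.

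Notch genes were called higher for 5 of 10 genes against smooth muscle and 7 of 13 against fibroblasts, and none was called lower. The median log2 differences were 0.98 and 1.35, beside 0.04 and -0.07 over all genes. Nrarp, a feedback target of Notch, averaged 168 ± 21.7 CPM in members, 2.17 ± 2.75 CPM in smooth muscle and 0.348 ± 0.0633 CPM in fibroblasts. It was 49.5 CPM in capillary endothelium. The rule used Notch3 itself, so this list is not independent of the selection. Promoter windows from RefSeq (GRCm38.p6; 250 bases before to 50 after the start) were searched on both strands for TGGGAA, the core bound by the Notch effector Rbpj. It occurred in 7 of 15 windows of rule and Notch genes and Fam162b, where the pair of Rbpj windows overlap and share a match, beside 25.6% of all windows, and not in that of Nrarp. Cox4i2, Higd1b, Hes1, Hey1, Heyl, Nrip2 and Dtx3 were not searched. Spp1, Adcy8, Gap43 and AC138306.1, which like Fam162b were among the top 12 genes in both comparisons, were not searched either. Of the windows at the 2 listed starts of Gucy1a1, the first held no match and the second held 4. The second, shown for its matches and because this rule gene had the highest level of the 5, and that of Fam162b, shown because it was among the top 12 genes in both comparisons, are printed 5′ to 3′ with the core or its complement in capitals, from GRCm38.p6 chr3:82145024-82145323 and chr10:51590411-51590710, both minus strand. A match is a description and not a site.
Gucy1a1: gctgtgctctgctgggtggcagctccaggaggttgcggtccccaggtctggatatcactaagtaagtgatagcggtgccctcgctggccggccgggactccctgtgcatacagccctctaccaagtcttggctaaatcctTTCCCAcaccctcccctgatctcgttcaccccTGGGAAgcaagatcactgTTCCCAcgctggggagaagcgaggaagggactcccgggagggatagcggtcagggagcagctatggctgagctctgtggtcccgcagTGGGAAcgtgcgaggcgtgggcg
Fam162b: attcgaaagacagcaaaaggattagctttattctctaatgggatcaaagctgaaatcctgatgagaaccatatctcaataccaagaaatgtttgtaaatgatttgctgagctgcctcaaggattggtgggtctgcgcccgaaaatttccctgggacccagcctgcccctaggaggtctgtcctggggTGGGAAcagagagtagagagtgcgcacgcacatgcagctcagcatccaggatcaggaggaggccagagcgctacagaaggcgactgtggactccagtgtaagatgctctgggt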

How the data were processed

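Lung cells of 4 libraries were profiled with Chromium GEM-X 3' v4 chemistry. The deposited UMI counts per gene and barcode were made with Cell Ranger 8.0.1, per the file headers, and mm10 is the build in the submitters' processing notes. They are not normalized, and whether introns were counted is not given in the sources used here. Barcodes were kept with at least 500 genes, 1000 UMIs and at most 10% mitochondrial UMIs. Members were selected by the stated rule, and the members and gene lists were chosen with earlier results of these data known. Counts were summed per library and tested with edgeR 4.0.16 (TMM, filterByExpr, quasi-likelihood F test, Benjamini-Hochberg adjustment), with the library as a block between classes, and with DESeq2 1.42.0 as an alternative. The scripts were tested on simulated data. CPM per library of members, and mean ± SD of members and classes beside a test between classes, are TMM-scaled; CPM of parts of the members, of capillary cells, and of marker sums without mixed barcodes or beside the smooth muscle class, and the Acta2 and Tagln levels of smooth muscle and fibroblast classes, are per total UMIs. Replicates differed beyond counting noise (chi-square per degree of freedom 7.49 in BPTES and 4.02 in DMSO). Named genes were the rule and identity genes, up to 10 per direction between treatments with the smallest unadjusted p, a mean of at least 20 CPM and groups that did not overlap, called list members and up to 4 of each list by level, and up to 12 called genes per direction and class comparison with the largest log2 difference and at least 20 CPM in the higher class. Hspa1a, Hspa1b, Hsph1, Isg15, Cxcl10, Cdkn1a and Cdkn2a were chosen after their values were seen. Alternatives changed the scaling, the filter, the tool, the block, the marker count, the mitochondrial limit, mixed barcodes and single libraries. Tools were R 4.3.3, Python 3.11.15 and scipy 1.17.1. Results for a few items are not reported here. 5 list symbols were matched to older names by Ensembl ID.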

Additional observations from a re-analysis of the deposited data

How the results depend on the processing

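The count of genes called between BPTES and DMSO in members depended on the processing. It was 0 as reported, 10 with DESeq2, 436 with no filter on low counts and 41 with a replicate block, and it ran from 0 to 50 when each library was left out in turn, the highest without BPTES library 2 and 3 without BPTES library 1. Leaving out a library leaves 1 in its group, which is then assumed to vary like the other group, so these counts rest on the spread of 1 group. The count stayed at 0 with RLE scaling, at least 4 of 5 markers, a mitochondrial limit of 5%, and without mixed barcodes, the smooth muscle part or the richest members. The labels do not say whether libraries with the same replicate number are paired. Differences between replicates 1 and 2 correlated at -0.0754 between groups over 11551 genes. Such a correlation cannot decide this, since paired libraries need not deviate together over all genes. For the difference between classes in treatment effect, 0 became 55 with no filter, and 0 to 168 with each library left out, the 103 and 168 being without BPTES libraries 1 and 2. The cause was not tested. Among the 20 genes named for their small p, signs reversed for Ptgs2 (1.58) and Cdh11 (1.23) without mixed barcodes, and for Ly6a (0.17) without the richest members, on the log2 scale. Over all 93 genes named between treatments, signs turned for 13 of 89 without mixed barcodes and 15 of 92 without the smooth muscle part; apart from Ptgs2 and Cdh11 these had log2 differences of at most 0.25 in size. Counts against smooth muscle and alveolar fibroblasts stayed within 1.5 times, and the ratio of shares was 1.04 to 1.32 over the other settings run. It reversed to 0.965 without mixed barcodes, an alternative chosen after seeing the data. By part it was 2.15 for the members that met the smooth muscle count and 0.918 for those that met neither count. Over the 16 gene lists, on counts per total UMIs, the number of genes whose groups did not overlap moved by 3 or more for these lists without mixed barcodes: Notch 0 to 3, contractile 12 to 4, basement membrane 0 to 5, fibrosis matrix 1 to 7, respiration and hypoxia 5 to 2, immediate early and heat shock 6 to 2, circadian 4 to 1 higher and glutamine use 8 to 3, interferon 10 to 7 lower. Without the smooth muscle part these were contractile 12 to 5, immediate early and heat shock 6 to 3 higher and interferon 10 to 13, nitric oxide and cGMP 4 to 0 lower. With 2 libraries a group, the share test cannot pass 0.05.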

Other observations

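A few members held a large share of the UMIs of some mural genes. Counting members with at least 4 of Steap4, Ebf2, Kcnj8, Abcc9, Rgs5 and Ednrb, genes chosen after their values were seen, gave 3 and 3 barcodes in BPTES and 7 and 3 in DMSO, 16 in all. They held 57.5% and 82.0% of the Rgs5 UMIs of members in BPTES and 98.4% and 87.3% in DMSO. For Steap4 these were 63.2% and 54.1% in BPTES and 93.0% and 69.8% in DMSO. For Ednrb, an endothelin receptor, they were 36.4% and 8.89% in BPTES and 99.3% and 14.2% in DMSO, so outside DMSO library 1 most Ednrb UMIs lay in the other members. No Spp1 UMI was found in these 16 barcodes, while the remaining members had 1947 and 3523 CPM in BPTES and 4928 and 3496 CPM in DMSO.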
